A study of Mus musculus with 8 samples.

Results

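The transcripts described here are those of 34 mouse genes of glycolysis and of the response to low oxygen, chosen by their symbols from a fixed list and found as 34 of the 29079 Ensembl genes in the count table. They comprise 24 genes of the glycolytic steps, from glucose uptake to lactate export, and 10 hypoxia genes, namely the regulator Hif1a, its hydroxylases Egln1 and Egln3, and 7 other hypoxia targets. They were measured by mRNA sequencing in MC38, an epithelial line from a mouse colon adenocarcinoma. The line called WT carried a CRISPR control, and the line called Piezo2 KO had been edited with 1 guide RNA against Piezo2, which encodes a mechanically gated ion channel. Each line was studied without irradiation and 60 hours after a single X-ray fraction of 30 Gy, with 2 libraries in each of the 4 groups, and WT and KO differ as 1 line against 1 line. No source used here says whether the libraries of a group were separate cultures, so the p-values speak of library-to-library spread that could be technical.

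Glycolysis splits glucose into pyruvate through a fixed series of cytosolic enzymes, and lactate dehydrogenase then turns pyruvate into lactate, which leaves the cell through monocarboxylate transporters. When oxygen is scarce, the prolyl hydroxylases of the EGLN family no longer mark the HIF alpha subunits for destruction, and HIF binds short response elements near its target genes. Most glycolytic enzymes and several transporters belong to those targets, together with genes of blood vessel growth, acid balance, collagen modification and mitochondrial turnover, and tumour lines often express the glycolytic set strongly even with oxygen present.

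Promoter sequences are shown for 5 members whose transcripts behaved differently in the results that follow. Ldha, Pgk1 and Slc16a1 fell after irradiation in both lines, Egln3 fell after irradiation and was lower in KO, and P4ha1 passed the edgeR threshold in no comparison unless the replicate number entered as a block. Each sequence is the 250 bases before the RefSeq transcription start on GRCm38.p6, read 5′ to 3′ on the gene's strand, in windows that held no exon annotated by GENCODE M21. Capitals mark the hypoxia response element core ACGTG or GCGTG on either strand (CACGT or CACGC where it lies on the opposite strand). A CACGTG holds a core on each strand, so the 2 overlap and count separately.
Ldha, chr7:46845554-46845803, plus strand: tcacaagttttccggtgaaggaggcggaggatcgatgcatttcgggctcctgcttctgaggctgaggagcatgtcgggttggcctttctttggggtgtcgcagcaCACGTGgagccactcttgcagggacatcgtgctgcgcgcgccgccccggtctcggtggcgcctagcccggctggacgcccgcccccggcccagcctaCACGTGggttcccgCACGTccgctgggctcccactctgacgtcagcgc
Pgk1, chrX:106186850-106187099, plus strand: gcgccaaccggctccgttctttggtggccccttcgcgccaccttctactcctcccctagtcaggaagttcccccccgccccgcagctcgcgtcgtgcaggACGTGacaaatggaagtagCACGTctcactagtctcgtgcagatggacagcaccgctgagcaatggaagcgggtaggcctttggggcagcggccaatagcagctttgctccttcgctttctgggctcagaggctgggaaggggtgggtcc
Slc16a1, chr3:104638414-104638663, plus strand: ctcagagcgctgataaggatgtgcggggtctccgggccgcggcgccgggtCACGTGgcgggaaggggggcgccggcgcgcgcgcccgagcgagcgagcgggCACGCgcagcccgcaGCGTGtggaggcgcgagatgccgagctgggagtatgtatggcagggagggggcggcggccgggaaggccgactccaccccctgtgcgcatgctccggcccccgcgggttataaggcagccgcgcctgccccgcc
Egln3, chr12:54203875-54204124, minus strand: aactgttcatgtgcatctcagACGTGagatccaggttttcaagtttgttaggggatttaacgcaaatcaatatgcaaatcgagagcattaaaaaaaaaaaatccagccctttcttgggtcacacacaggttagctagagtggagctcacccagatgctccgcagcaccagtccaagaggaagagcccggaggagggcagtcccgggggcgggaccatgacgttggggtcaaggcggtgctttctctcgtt
P4ha1, chr10:59323046-59323295, plus strand: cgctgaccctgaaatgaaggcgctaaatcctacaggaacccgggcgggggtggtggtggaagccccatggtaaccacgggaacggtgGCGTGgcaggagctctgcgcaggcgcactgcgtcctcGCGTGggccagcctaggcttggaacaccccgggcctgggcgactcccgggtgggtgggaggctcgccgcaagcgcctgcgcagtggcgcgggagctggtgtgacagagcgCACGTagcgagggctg

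The Ldha window shown held 5 cores, of which 4 lay in 2 copies of CACGTG that began 145 and 48 bases before the start. A second Ldha window, before another RefSeq start, held 1 core, 59 bases before that start, and no CACGTG. The Slc16a1 window held 4 cores, with a CACGTG 200 bases before the start. The Pgk1 window held 2, at 150 and 131 bases before the start, and the Egln3 window held 1, at 229 bases. P4ha1 had 3 cores, at 163, 126 and 16 bases before its start. RefSeq windows were matched for 32 of the 34 members, with 46 windows in all. A core was present in 80.4% of the 46 windows, against 38.6% of all 32851 windows in the RefSeq table. The 46 are not all separate promoters, since windows of Eno1, Aldoa and Pfkm overlap and count some cores again. Windows other than those shown can hold annotated exons, which fill all 250 bases for Higd1a. The 3 members with no core in any window were Gpi1, Tpi1 and Eno2. Whether the presence of a core goes with a change in transcript level was not tested. The member windows were also richer in G and C, with a median of 61% against 52.4%, and the part of base composition in the motif share was not tested. By class, 77.8% of 36 windows of glycolytic genes and 90% of 10 windows of hypoxia genes held a core. The match is a description of letters and does not show binding.

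Total counts ran from 10971004 to 19887180 per library. Piezo2 could not serve as a check of the labels, since the unirradiated WT libraries held 0 and 0 reads of it, the irradiated WT libraries 3 and 9, the unirradiated KO libraries 0 and 1, and the irradiated KO libraries 7 and 12. Of 10 colon epithelial markers 7 were found in the count table, and Epcam, Krt20 and Cdx2 were not. Among those found, Cdh1 (E-cadherin) made up nearly all of a summed level of 40 to 40.9 CPM (reads per M reads counted) in unirradiated WT and 78.1 to 80.8 CPM in irradiated WT. The sums were 48.2 to 50.5 CPM in unirradiated KO and 80.5 to 81.4 CPM in irradiated KO, while Krt18 had at most 2 reads in every library. Fibroblast markers, led by the collagens Col1a2 and Col3a1, were higher still. They summed to 1059 to 1168 CPM in unirradiated WT, 1556 to 1721 in irradiated WT, 1486 to 1576 in unirradiated KO and 2439 to 2722 in irradiated KO, with Lum at no more than 2 reads in every library. Macrophage markers summed to 3.68 to 3.81 CPM in unirradiated and 38.1 to 40 in irradiated WT, and to 7.2 to 7.79 and 55.5 to 64.5 in KO. Nearly all of this sum was Cd68, and Adgre1, C1qa, Tyrobp and Itgam had at most 2 reads in every library. T and NK cell markers summed to at most 0.465 CPM. Endothelial markers summed to 1.72 to 1.97 CPM in unirradiated and 5.09 to 6.91 in irradiated WT, and to 7.59 to 8.84 and 11.1 to 13.2 in KO. The part of these marker shifts in the results was not tested.

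The 8 most abundant members per length were glycolytic enzymes from aldolase onwards and of lactate production. Mean levels over the 8 libraries, in transcripts per M (TPM, counts divided by exon length and scaled to a fixed sum), were 2549.6 for Pkm, 1363 for Eno1, 1215 for Gapdh, 1150.1 for Pgk1, 1088 for Ldha, 812 for Tpi1, 615 for Aldoa and 506 for Pgam1. Eno1, Gapdh, Pgk1 and Ldha overlapped in their range over libraries, and with the longest transcript as the length Eno1 stood at 2730.2 TPM, so their order is not fixed. Next came P4ha1, Bnip3, Ndrg1 and Hif1a, with means of 132, 129.6, 129 and 128 TPM, which overlapped. With the longest transcript Gpi1 and Hk1 stood above P4ha1, at 192 and 140.3 against 102 TPM. At the other end, Slc2a3, the neuronal-type glucose transporter, and Ldhb, the heart-type lactate dehydrogenase subunit, had mean levels of 0.0784 and 0.299 TPM and did not pass the filter on low counts. The remaining 32 members were tested among 14923 genes. In each library, the 24 glycolytic genes took a mean of 1.25 ± 0.127% of all counts in unirradiated WT, 0.95 ± 0.0849% in irradiated WT, 1.38 ± 0.134% in unirradiated KO and 0.936 ± 0.0382% in irradiated KO (SD, n = 2 each). The 10 hypoxia genes took 0.0911 ± 0.00212%, 0.0848 ± 0.000849%, 0.106 ± 0.00636% and 0.0912 ± 0.00148% in the same order (SD, n = 2 each).

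**Figure D1:**
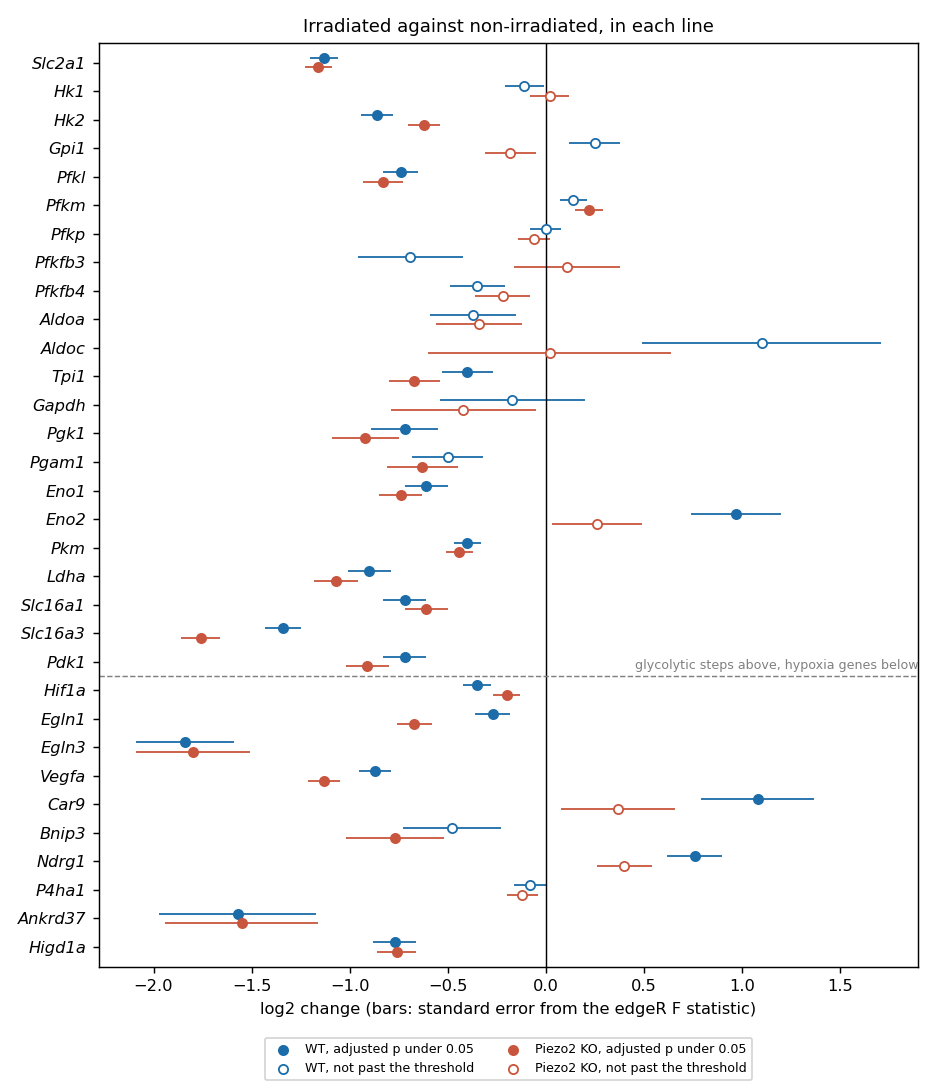
Log2 change with irradiation of the 32 tested members (horizontal axis, with the standard error as a bar), in WT (blue) and Piezo2 KO (red), in pathway order from top to bottom; filled points passed the edgeR adjusted p of 0.05. In WT 17 filled points lie left of 0 and 3 right of it, and in KO 19 lie left and 1 right.

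More members fell than rose with irradiation in both lines. In WT, 17 of the 32 tested members fell and 3 rose (edgeR quasi-likelihood test, Benjamini-Hochberg adjusted p under 0.05), where 18.4% of all tested genes fell and 20.4% rose. In KO, 19 fell and 1 rose, where 18.6% of all tested genes fell and 21.1% rose. All 17 members that fell in WT also fell in KO, which is 100% of the WT list and 89.5% of the KO list, and the other two of the KO list were Pgam1 and Bnip3. The median log2 change of the tested members was -0.44 in WT and -0.61 in KO, beside 0.03 and 0.02 over all tested genes. In these bulk libraries, fewer cells that express a gene and less of its RNA per cell cannot be told apart.

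Glucose enters through transporters and is trapped by hexokinase. At this step Slc2a1 and Hk2 fell, while Hk1, the more abundant hexokinase, was not called in either line without the replicate block. Slc2a1 (ENSMUSG00000028645, chromosome 4, 119108711 to 119137983, plus strand of GRCm38), which encodes the transporter GLUT1, stood at 102 and 102 CPM in unirradiated WT (replicates 1 and 2, the order used throughout) and 48.1 and 49 CPM in irradiated WT. In KO it stood at 123 and 114 CPM without and 55.5 and 53.2 CPM with irradiation. The irradiated libraries lay below every unirradiated library, with log2 changes of -1.13 ± 0.07 in WT (SE, edgeR adjusted p = 4e-05) and -1.16 ± 0.07 in KO (edgeR adjusted p = 2.1e-05). Hk2, a hexokinase typical of tumour cells, went from 66.1 and 66.9 to 38 and 38.3 CPM in WT and from 69 and 61.6 to 44.2 and 42.7 CPM in KO. Its log2 changes were -0.86 ± 0.08 and -0.62 ± 0.08. Hk1, the ubiquitous hexokinase, did not pass the threshold in either line, at -0.11 ± 0.10 and 0.02 ± 0.10, though the fit with the replicate number as a block called it lower in WT (edgeR adjusted p = 0.0242). As a result of these unequal changes, Hk2 made up 30.5 ± 1.44% of the summed Hk1 and Hk2 TPM in unirradiated WT and 20.7 ± 1.12% in irradiated WT (SD, n = 2 each). The same share was 29.6 ± 3.1% and 21.3 ± 1.53% in KO. With the longest transcript as the length, the means were 19.2% and 12.4% in WT and 18.6% and 12.8% in KO.

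The steps around phosphofructokinase, where flux into the pathway is set, moved in part. Of 6 members at these steps, 1 fell in each line, and that was Pfkl, the liver-type subunit of phosphofructokinase. It went from 183 and 201 to 114 and 124 CPM in WT (log2 change -0.74 ± 0.09) and from 174 and 188 to 97.5 and 110.2 CPM in KO (-0.83 ± 0.10). Pfkm, the muscle-type subunit, moved the other way in KO, from 66.4 and 67.2 to 77.7 and 82.2 CPM (0.22 ± 0.07, edgeR adjusted p = 0.0437). This call was lost in each of the 8 fits that left out a library, with DESeq2 (adjusted p = 0.131), with only the 4 KO libraries (0.113) and without the low-count filter (0.165). In WT Pfkm had 95 and 102 CPM before and 116 and 110.0 CPM after irradiation (0.14 ± 0.07, edgeR adjusted p = 0.172, and 0.022 with the block). Pfkp, the platelet-type subunit, had 0.00 ± 0.08 and -0.06 ± 0.08. Pfkl therefore took a smaller share of the 3 subunits' TPM after irradiation, with 44.4 ± 0.742% against 30.6 ± 2.06% in WT and 47.6 ± 1.62% against 31.7 ± 1.45% in KO (SD, n = 2 each). Pfkm took a larger share, with 45.6 ± 0.0858% against 57.9 ± 1.48% in WT and 35.2 ± 0.447% against 48.7 ± 0.0466% in KO. With the longest transcript as the length, the mean Pfkl share was 53.8% against 39.2% in WT and 55.8% against 39.5% in KO. The mean Pfkm share was then 35.8% against 48% in WT and 26.8% against 39.4% in KO. Which of the 2 subunits held the larger share in unirradiated WT thus depended on the length. Gpi1, glucose phosphate isomerase, and Pfkfb3 and Pfkfb4, which make the activator of phosphofructokinase, did not pass the threshold in either line without the block. With it, edgeR called Gpi1 higher in WT (0.25, adjusted p = 5.12e-05) and lower in KO (-0.18, adjusted p = 0.00176). It also called Pfkfb3 and Pfkfb4 lower in WT (-0.67 and -0.35, adjusted p = 0.00637 and 0.0142).

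**Figure D2:**
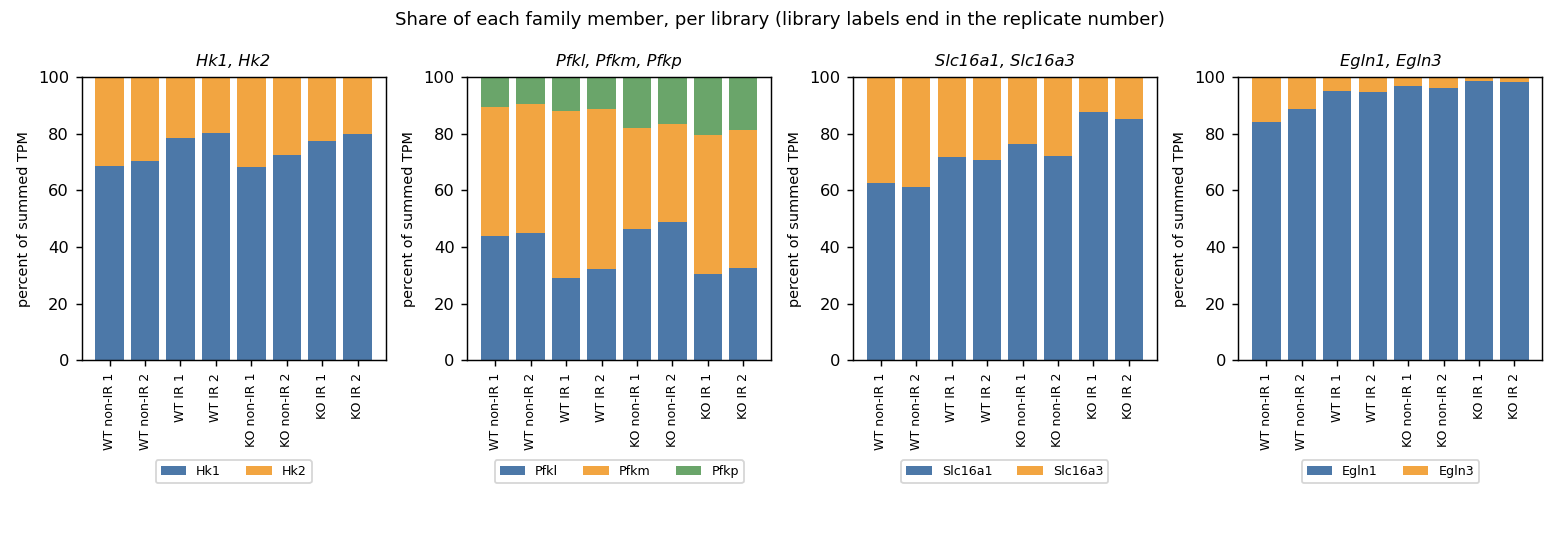
Share of each family member in the summed TPM of its family (vertical axis, percent), 1 bar per library, for hexokinases, phosphofructokinase subunits, lactate transporters and EGLN hydroxylases. The shares of Hk2, Pfkl, Slc16a3 and Egln3 are smaller in the irradiated libraries of each line than in its unirradiated libraries.

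Of the 9 members from aldolase to pyruvate kinase, 4 fell and 1 rose in WT, and 5 fell in KO. Pgk1, phosphoglycerate kinase, which yields the first ATP of the pathway, had 988 and 791 CPM in unirradiated and 620.5 and 509 CPM in irradiated WT, and 1040.5 and 790.3 against 521 and 466 CPM in KO. The irradiated libraries were below the unirradiated ones in both lines, with log2 changes of -0.72 ± 0.17 and -0.92 ± 0.17 (edgeR adjusted p = 0.012 and 0.00398). The WT call for Pgk1 was lost when replicate 1 of unirradiated WT or replicate 2 of irradiated WT was left out, at -0.55 and -0.59. Eno1, the main enolase, fell by 0.61 ± 0.11 on the log2 scale in WT and by 0.74 ± 0.11 in KO, and Pkm, pyruvate kinase, fell by 0.40 ± 0.07 and by 0.44 ± 0.07. Another annotated gene on the same strand, Gm49759, shares 15.3% of the exon length of Pkm. Tpi1, triosephosphate isomerase, fell by 0.40 ± 0.13 in WT, which held in 3 of the 8 fits that left out a library, and by 0.67 ± 0.13 in KO. Pgam1, phosphoglycerate mutase, had -0.50 ± 0.18 in WT (edgeR adjusted p = 0.0629, 5.62e-13 with the block, 3.51e-05 without the low-count filter, and 0.0163 with DESeq2) and fell by 0.63 ± 0.18 in KO (edgeR adjusted p = 0.0274), a call lost without replicate 1 of unirradiated KO (-0.47) or either irradiated KO library (-0.73 and -0.55). Reads of Gapdh, Pgk1, Pgam1, Eno1, Ldha and other abundant enzymes may be split with processed copies elsewhere in the genome, so their levels are uncertain.

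Aldoa, the main aldolase, and Gapdh, often used as a reference transcript, did not pass the threshold in either line without the block. Gapdh had 1943 and 1155 CPM in unirradiated WT, 1795 and 1089 in irradiated WT, 1839.8 and 1076 in unirradiated KO and 1357 and 871 in irradiated KO. Replicate 1 was higher in every group, by 0.75, 0.72, 0.77 and 0.64 on the log2 scale, and this gap exceeded the log2 change with irradiation of -0.17 ± 0.37 in WT and -0.42 ± 0.37 in KO. Aldoa went the other way, with replicate 2 higher in every group by 0.31 to 0.45. Among the 34 members, replicate 1 was higher in all 4 groups in 13, replicate 2 in 5, and the order differed between groups in 14. With the replicate number as a block, edgeR called Gapdh lower after irradiation in both lines (adjusted p = 6.59e-05 in WT and 4.93e-14 in KO), likewise Aldoa (1.96e-10 and 1.97e-09). Without the low-count filter and without the block, edgeR called Aldoa lower in both lines (adjusted p = 0.00508 and 0.008) and Gapdh in KO (0.00154). The CPM of irradiated and unirradiated libraries overlapped for both genes in each line. With the block 24 members fell and 5 rose in WT, where 29.9% and 30.6% of all tested genes did, and 23 fell and 2 rose in KO, where 29.6% and 30.6% did.

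**Figure D3:**
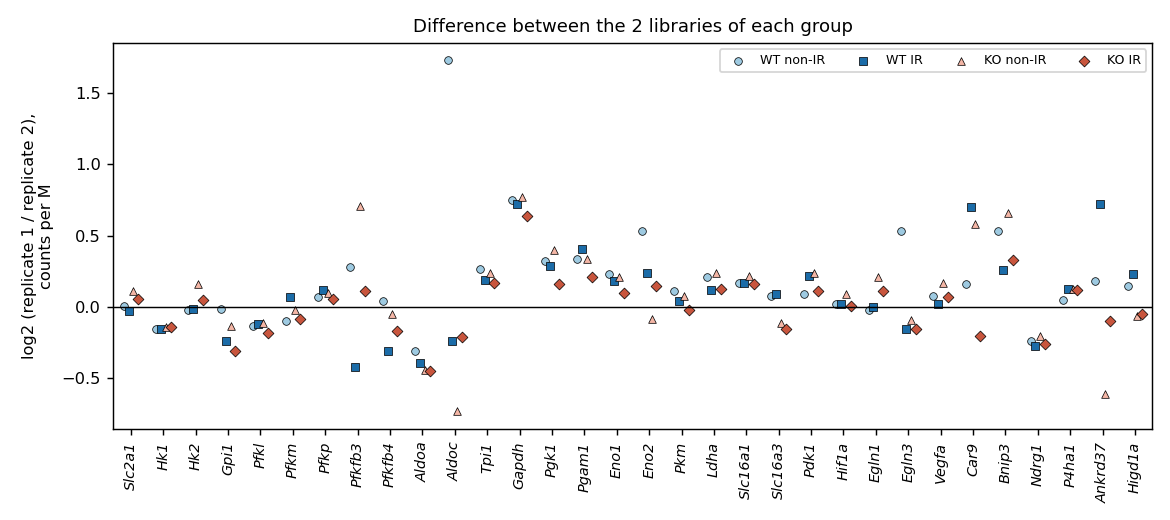
Log2 ratio of replicate 1 to replicate 2 in CPM (vertical axis) for each tested member, with 1 symbol per group. Gapdh lies between 0.64 and 0.77 in all 4 groups, and Aldoa below 0 in all 4.

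Eno2, the neuronal enolase, was the glycolytic gene that rose in WT, from 3.97 and 2.76 to 7.45 and 6.33 CPM (log2 change 0.97 ± 0.23, edgeR adjusted p = 0.0137). In KO it had 4.19 and 4.42 CPM without and 5.57 and 5.02 CPM with irradiation (0.26 ± 0.23, edgeR adjusted p = 0.419). The WT call was lost without replicate 2 of unirradiated WT (0.72) or replicate 1 of irradiated WT (0.83). Even after the rise Eno2 held 0.52 ± 0.0142% of the summed Eno1 and Eno2 TPM in irradiated WT (SD, n = 2). With the longest transcript as the length, this mean was 0.331%. Aldoc, the brain-type aldolase, had 0.652 and 0.197 against 0.885 and 1.05 CPM in WT and 0.456 and 0.754 against 0.597 and 0.693 CPM in KO. Its log2 changes of 1.10 ± 0.61 and 0.02 ± 0.62 did not pass (edgeR adjusted p = 0.193 and 0.988), from 3 to 18 reads per library.

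Genes that handle pyruvate and lactate fell together, with all 4 tested members lower in each line. Ldha (ENSMUSG00000063229, chromosome 7, 46841475 to 46855627, plus strand), the subunit of lactate dehydrogenase that favours lactate, had 1191 and 1032 CPM in unirradiated and 647 and 596 CPM in irradiated WT. In KO it had 1649 and 1395 CPM without and 775 and 708 CPM with irradiation. The groups did not overlap within a line, and the log2 changes were -0.90 ± 0.11 in WT (edgeR adjusted p = 0.00079) and -1.07 ± 0.11 in KO (edgeR adjusted p = 0.000328). Slc16a3, the lactate exporter MCT4, had 89 and 84.4 against 36.9 and 34.6 CPM in WT and 61.3 and 66.3 against 18.2 and 20.3 CPM in KO. Its log2 changes of -1.34 ± 0.09 and -1.76 ± 0.10 were the furthest below 0 of the glycolytic genes in each line (edgeR adjusted p = 6.14e-05 and 1.26e-05). Slc16a1, which encodes the transporter MCT1, went from 124 and 111 to 78.6 and 69.9 CPM in WT and from 165 and 142 to 109 and 97.2 CPM in KO, with log2 changes of -0.72 ± 0.11 and -0.61 ± 0.11. Pdk1, the kinase that restrains pyruvate dehydrogenase, fell by 0.72 ± 0.11 and by 0.91 ± 0.11. The share of Slc16a3 in the summed TPM of both transporters was 38.1 ± 1.02% in unirradiated WT, 28.6 ± 0.791% in irradiated WT, 25.8 ± 3.1% in unirradiated KO and 13.5 ± 1.77% in irradiated KO (SD, n = 2 each). With the longest transcript as the length, the means were 43%, 33%, 29.9% and 16.1% in the same order.

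Ldhb was close to undetected, with 0 and 1 reads in unirradiated WT, 6 and 8 in irradiated WT, 0 and 0 in unirradiated KO and 1 and 0 in irradiated KO. The summed reads, scaled to depth, gave a ratio of 14.6 between irradiated and unirradiated WT (95% exact interval 2.22 to 617, counting error only). The ratio of irradiated KO to irradiated WT was 0.0678 (0.0016 to 0.446). Without the filter on low counts, edgeR gave adjusted p = 0.127 and 0.157 for these comparisons, so neither passed. Slc2a3 had at most 5 reads in any library.

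The hypoxia genes mostly fell as well. In WT, 6 of 10 fell and 2 rose, with a median log2 change of -0.42, beside 11 of 22 lower and 1 higher among tested glycolytic genes, with a median of -0.45. In KO, 7 of 10 hypoxia genes fell with a median of -0.72, beside 12 of 22 lower and 1 higher among glycolytic genes, with a median of -0.52. The difference between the classes was not tested. Hif1a, the oxygen-regulated HIF subunit, had 229 and 226 against 187 and 185 CPM in WT (-0.35 ± 0.07, edgeR adjusted p = 0.00518) and 232 and 218 against 201 and 199 CPM in KO (-0.20 ± 0.07, edgeR adjusted p = 0.0446). The KO call for Hif1a did not pass with DESeq2 (adjusted p = 0.0776), nor in 7 of the 8 fits without a library. The protein, on which oxygen acts, was not measured.

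Egln3 (ENSMUSG00000035105, chromosome 12, 54178981 to 54203860, minus strand), a prolyl hydroxylase that is itself a HIF target, fell in both lines. It had 10.8 and 7.49 CPM in unirradiated WT, 2.51 and 2.79 in irradiated WT, 2.55 and 2.72 in unirradiated KO, and 0.73 and 0.808 in irradiated KO. Unirradiated KO and irradiated WT thus overlapped, and the irradiated KO libraries were lowest, at 11 and 14 reads. The log2 change with irradiation was -1.84 ± 0.25 in WT (edgeR adjusted p = 0.00115) and -1.80 ± 0.29 in KO (edgeR adjusted p = 0.00228). Egln1, the main oxygen sensor among these hydroxylases, had 77.6 and 78.5 against 67.2 and 67.4 CPM in WT (-0.27 ± 0.09, edgeR adjusted p = 0.0385) and 105 and 90.6 against 64.9 and 60.3 CPM in KO (-0.67 ± 0.09, edgeR adjusted p = 0.000783). Egln1 in WT did not pass with DESeq2 (adjusted p = 0.0856), nor in 5 of the 8 fits without a library.

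Among the other hypoxia targets, Vegfa, the vascular growth factor, went from 182 and 173 to 102 and 101 CPM in WT and from 165 and 147 to 74.7 and 71.2 CPM in KO. Its log2 changes were -0.87 ± 0.08 (edgeR adjusted p = 0.000184) and -1.13 ± 0.08 (edgeR adjusted p = 4.31e-05). Ankrd37, an ankyrin repeat gene, had 2.31 and 2.04 against 0.959 and 0.581 CPM in WT and 2.01 and 3.07 against 0.862 and 0.923 CPM in KO, with log2 changes of -1.57 ± 0.40 and -1.55 ± 0.39 (edgeR adjusted p = 0.0167 and 0.0156). The WT call was lost without replicate 1 of unirradiated WT (-1.48) or replicate 2 of irradiated WT (-1.25), and the KO call without replicate 2 of unirradiated KO (-1.19) or either irradiated KO library (-1.50 and -1.62). Higd1a, a mitochondrial protein of the hypoxia response, fell by 0.77 ± 0.11 and by 0.76 ± 0.10. Bnip3, a mitophagy receptor, had 86.8 and 60 against 59.8 and 50.1 CPM in WT (-0.48 ± 0.25, edgeR adjusted p = 0.167, 1.78e-07 with the block and 7.24e-05 without the low-count filter) and 151 and 95.6 against 81.8 and 65.2 CPM in KO (-0.77 ± 0.25, edgeR adjusted p = 0.0399). The KO call for Bnip3 was lost without replicate 1 of unirradiated KO (-0.44) or either irradiated KO library (-0.94 and -0.64). Exons of a gene on the opposite strand cover 22.7% of the exon length of Ankrd37 (Lrp2bp), 22.3% of Bnip3 (Gm45507) and 22.5% of Higd1a (Gm47112). Another such gene, Ufsp2, covers 3.7% of Ankrd37. Without a stated strand setting, the reads of these genes and of the members cannot be told apart.

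Ndrg1, a stress-responsive gene, and Car9, the membrane carbonic anhydrase of acid balance, moved against the rest. Ndrg1 rose in WT from 131 and 154 to 227 and 274 CPM (0.76 ± 0.14, edgeR adjusted p = 0.0049). In KO it had 216 and 249 against 286 and 343 CPM (0.40 ± 0.14, edgeR adjusted p = 0.0577), and passed as higher with the block (adjusted p = 6.45e-11), without the low-count filter (0.00201), with upper-quartile factors (0.0479) and with DESeq2 (0.0231). Car9 rose in WT from 3.68 and 3.28 to 9.52 and 5.87 CPM (1.08 ± 0.29, edgeR adjusted p = 0.0221). This call was lost without either unirradiated WT library or without replicate 1 of irradiated WT, where the log2 change was 0.68. In KO Car9 had 5.56 and 3.72 against 5.64 and 6.46 CPM, and the groups did not differ beyond the spread (0.37 ± 0.29, edgeR adjusted p = 0.36). P4ha1, a collagen prolyl hydroxylase subunit, stayed between 141 and 165 CPM over all 8 libraries, with -0.08 ± 0.08 in WT and -0.12 ± 0.08 in KO (edgeR adjusted p = 0.483 and 0.277). With the block on replicate number it was called lower in KO (-0.13, edgeR adjusted p = 0.0162).

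**Figure D4:**
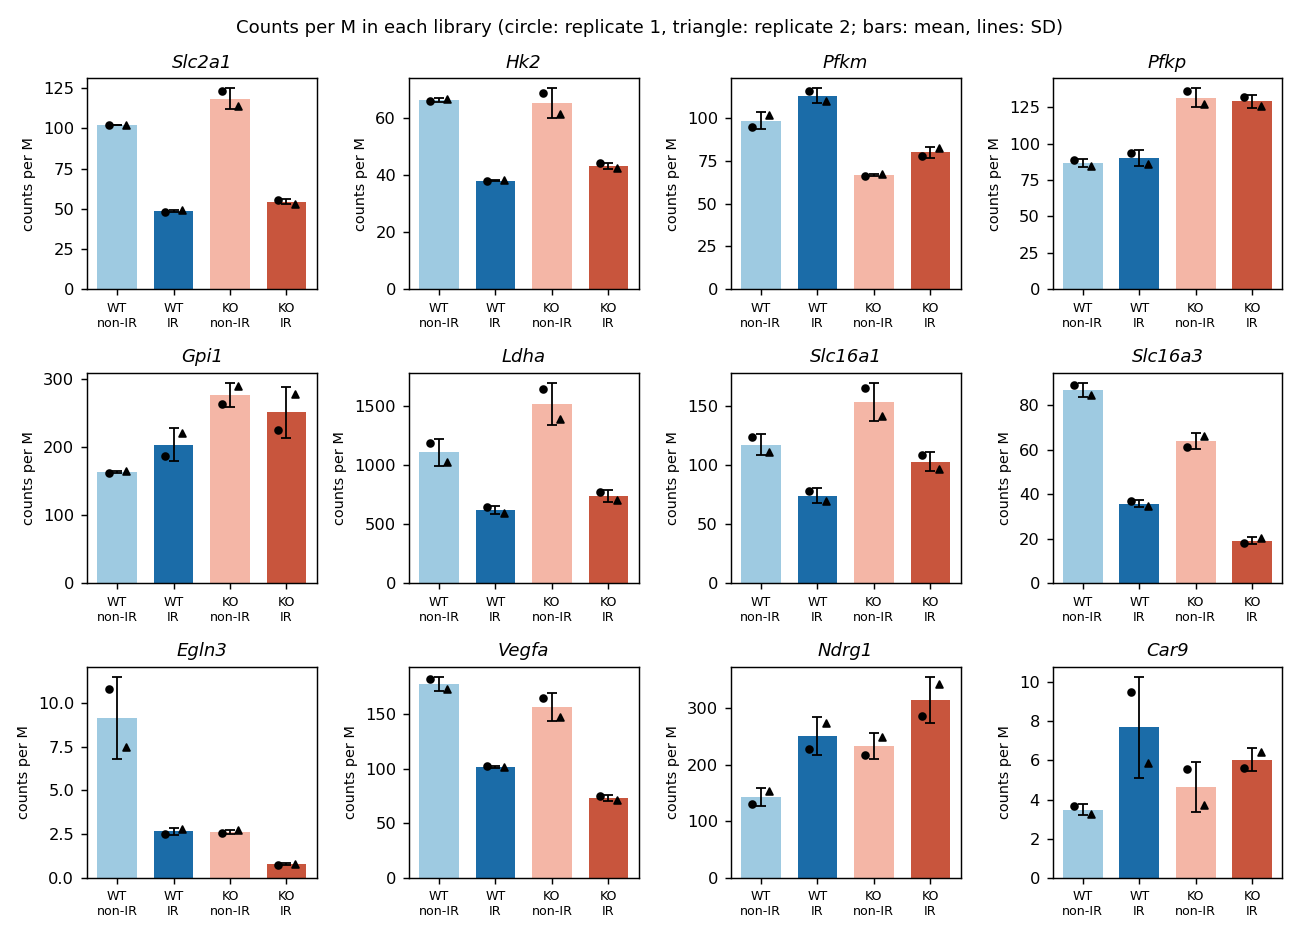
CPM of 12 members in each library (circle, replicate 1; triangle, replicate 2), with bars for the mean and lines for the SD (n = 2), in WT and Piezo2 KO without (non-IR) and with (IR) irradiation. Slc2a1, Ldha, Slc16a3 and Vegfa are lower in both irradiated groups, Pfkp is higher in both KO groups, and Egln3 is highest in unirradiated WT.

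The knockout line differed from WT at fewer members, and in both directions. Without irradiation 6 of 32 were higher in KO and 3 lower (edgeR adjusted p under 0.05), where 10.4% and 9.49% of all tested genes were, and the member median was 0.10 beside -0.01 over all genes. After irradiation 2 were higher and 4 lower, where 13.3% and 11.4% of all tested genes were, again with a median of 0.10 beside -0.01. The members higher after irradiation, Pfkp and Slc16a1, were both also higher without it, which is 100% of the list after and 33.3% of the list without irradiation. The 3 lower without irradiation, Pfkm, Slc16a3 and Egln3, were also lower after it, which is 100% of the list without and 75% of the list after irradiation, with Vegfa as the fourth of the latter. Each KO comparison shares a WT group and a KO group with the irradiation comparisons, so their values are not independent. With the block on replicate number, 11 members were higher and 5 lower without irradiation (21.4% and 23.5% of all tested genes), and 14 higher and 9 lower after it (25.2% and 25.2% of all tested genes). The members that this added without irradiation were Slc2a1, Aldoa, Eno1, Pdk1 and Bnip3, higher in KO, and Gapdh and Vegfa, lower. After irradiation it added Slc2a1, Hk1, Hk2, Gpi1, Pfkfb3, Aldoa, Eno1, Ldha, Pdk1, Hif1a, Bnip3 and Ndrg1, higher in KO, and Pfkl, Tpi1, Gapdh, Pgk1 and Pgam1, lower.

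Subunits of phosphofructokinase differed between the lines in opposite directions. Pfkp (ENSMUSG00000021196, chromosome 13, 6579768 to 6648777, minus strand) had 88.8 and 84.5 CPM in unirradiated WT against 136 and 127 in unirradiated KO, and 93.8 and 86.3 in irradiated WT against 132 and 126 in irradiated KO. All 4 KO libraries were above all 4 WT libraries, and the log2 differences of KO from WT were 0.59 ± 0.08 (edgeR adjusted p = 0.00211) and 0.53 ± 0.08 (edgeR adjusted p = 0.00224). For Pfkm, whose CPM are given above, every KO library was below every WT library, with log2 differences of -0.57 ± 0.07 (edgeR adjusted p = 0.00201) and -0.48 ± 0.07 (edgeR adjusted p = 0.00278). Another annotated gene on the same strand, Gm26513, shares 10.2% of the exon length of Pfkm, and its part in these values was not tested. Pfkp took 10 ± 0.827% of the 3 subunits' TPM in unirradiated WT and 17.2 ± 1.17% in unirradiated KO, and 11.5 ± 0.578% and 19.6 ± 1.41% after irradiation (SD, n = 2 each). With the longest transcript as the length, the means after irradiation were 12.7% in WT and 21.1% in KO. Pfkl did not pass the threshold between the lines, at -0.10 ± 0.09 and -0.19 ± 0.10, but was called lower after irradiation with the block (edgeR adjusted p = 0.00113).

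The lactate transporters also went in opposite directions. Slc16a1 was higher in KO by a log2 difference of 0.37 ± 0.11 without irradiation (edgeR adjusted p = 0.0484) and 0.48 ± 0.11 after it (edgeR adjusted p = 0.0159). The call without irradiation was lost in all 8 fits that left out a library and with RLE factors (adjusted p = 0.0512), and the call after irradiation was lost in 2 of the 8. Slc16a3 was lower in KO, with log2 differences of -0.45 ± 0.09 (edgeR adjusted p = 0.0128) and -0.88 ± 0.10 (edgeR adjusted p = 0.000669), and its 4 KO libraries did not overlap the WT libraries of the same treatment. Without irradiation this call was lost when replicate 1 of either line was left out, at -0.40 and -0.38. Ldha was higher in KO without irradiation (0.44 ± 0.11, edgeR adjusted p = 0.0309), a call lost without replicate 2 of unirradiated WT or replicate 1 of unirradiated KO, at 0.33 each. After irradiation the difference for Ldha was 0.27 ± 0.11 (edgeR adjusted p = 0.127, and 3.05e-08 with the block).

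Gpi1, which interconverts glucose and fructose phosphates, had 163 and 165 CPM in unirradiated WT and 264 and 289.7 in unirradiated KO (log2 difference 0.74 ± 0.13, edgeR adjusted p = 0.00622). In the irradiated groups it had 187 and 221 CPM in WT and 225 and 278 in KO (0.32 ± 0.13, edgeR adjusted p = 0.109, 7.83e-07 with the block and 0.0275 without the low-count filter). An RNA on the opposite strand shares 11.5% of the exon length of Gpi1. Of the 9 members from aldolase to pyruvate kinase, none was called between the lines at either dose by the edgeR test. At an unadjusted p under 0.05 there was 1 of these 9 without irradiation and 0 after it. Of all 14923 tested genes, 5037 and 5501 were under 0.05 in the same order. The block on replicate number called 2 of the 9 members higher and 1 lower in KO without irradiation, and 2 higher and 4 lower after it. Without the low-count filter, edgeR called Aldoa higher in KO at both doses (adjusted p = 0.0139 and 0.00725) and Gapdh lower after irradiation (0.0136). The CPM of KO and WT libraries overlapped in each of these comparisons.

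Among hypoxia genes, Egln3 was lower in KO both without irradiation (-1.80 ± 0.25, edgeR adjusted p = 0.00286) and after it (-1.76 ± 0.29, edgeR adjusted p = 0.00405). Its share of the summed Egln1 and Egln3 TPM was 13.6 ± 3.11% in unirradiated WT, 5.04 ± 0.349% in irradiated WT, 3.53 ± 0.504% in unirradiated KO and 1.64 ± 0.2% in irradiated KO (SD, n = 2 each). Egln1 was higher in KO without irradiation (0.31 ± 0.09, edgeR adjusted p = 0.0404), though not with DESeq2 (adjusted p = 0.066) or in 7 of the 8 fits without a library, and was not called after irradiation (-0.09 ± 0.09). Ndrg1 was higher in KO without irradiation (0.70 ± 0.14, edgeR adjusted p = 0.0131), a call lost without replicate 1 of unirradiated WT (0.60) or replicate 2 of unirradiated KO (0.59), and had 0.34 ± 0.14 after irradiation (edgeR adjusted p = 0.125, 4.4e-09 with the block and 0.0151 without the low-count filter). Vegfa was lower in irradiated KO than in irradiated WT (-0.46 ± 0.08, edgeR adjusted p = 0.0052), a call lost without replicate 2 of irradiated KO (-0.41), and had -0.20 ± 0.08 without irradiation (edgeR adjusted p = 0.118, and 0.000314 with the block). Bnip3, with 0.73 ± 0.25 and 0.43 ± 0.25, did not pass at either dose in the unblocked fit (edgeR adjusted p = 0.0789 and 0.254). It was called higher in KO at both doses with the block (8.74e-13 and 1.09e-06) and without the low-count filter (3.18e-10 and 0.000965), and without irradiation with DESeq2 (0.0101).

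**Figure D5:**
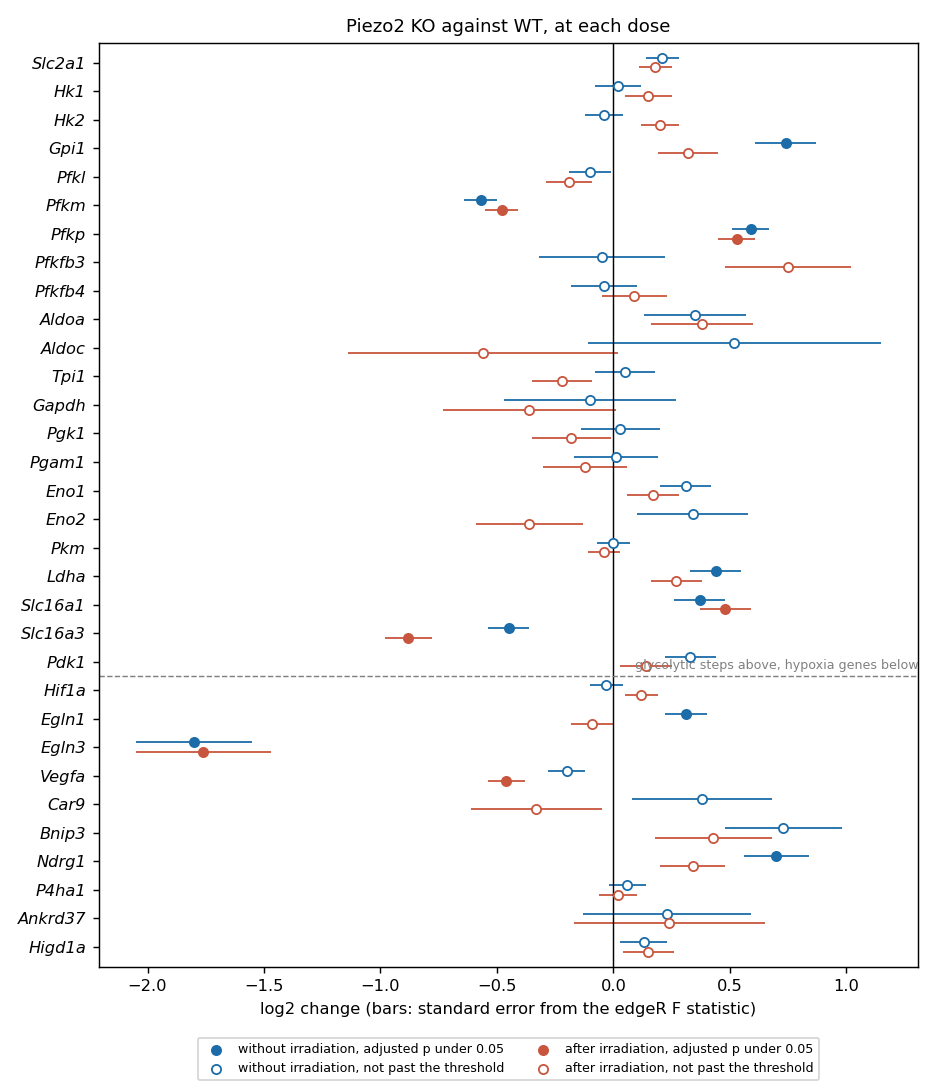
Log2 difference of Piezo2 KO from WT for the 32 tested members (horizontal axis, with the standard error as a bar), without irradiation (blue) and after it (red); filled points passed the edgeR adjusted p of 0.05. Egln3 lies at -1.80 and -1.76, Pfkp at 0.59 and 0.53, and Pfkm at -0.57 and -0.48.

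Whether irradiation acted differently in the lines was tested as an interaction, in which the change in WT is subtracted from the change in KO. None of the 32 members passed the edgeR test, and DESeq2 called 0, where edgeR called 1.37% of all tested genes higher and 0.57% lower. At an unadjusted p under 0.05 edgeR gave 4 of the 32 members, beside 1857 of all 14923 tested genes. The member median was -0.11 beside -0.01 over all genes. Eno2 and Car9, called in WT and not in KO, had interactions of -0.71 ± 0.33 and -0.71 ± 0.41 (edgeR adjusted p = 0.442 and 0.566), so a difference between the lines was not shown for them. The block on replicate number called 1 member higher and 11 lower, where 8.15% and 8.55% of all tested genes were. The lower ones were Gpi1, Tpi1, Gapdh, Pgk1, Eno1, Ldha, Slc16a3, Egln1, Vegfa, Bnip3 and Ndrg1, and the higher one was Pfkfb3. Their sizes in that fit included -0.43 for Slc16a3 (edgeR adjusted p = 0.00471), -0.42 for Gpi1 (1.25e-05), -0.40 for Egln1 (0.00043), -0.26 for Vegfa (0.0051) and -0.17 for Ldha (0.0124). Within replicate 1 the interaction was -0.48 for Slc16a3 and -0.49 for Egln1, and within replicate 2 it was -0.43 and -0.37, so the libraries of both numbers had the same sign. The smaller p-values of the block came with 37.2 prior degrees of freedom, against 3.68 without it.

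Genes of neighbouring branches, chosen with results of these data known, are given as counts beside the share of all tested genes, of which 20.4% rose and 18.4% fell in WT after irradiation, and 21.1% rose and 18.6% fell in KO. Counts near those shares show nothing particular to a branch. Of 13 tested glycolytic isozymes outside the list, 5 rose and 2 fell in WT, and 5 rose and 1 fell in KO. Pgam2, the muscle phosphoglycerate mutase, rose by 1.34 ± 0.22 and 2.30 ± 0.23, and Slc2a6, a hexose transporter, by 1.33 ± 0.18 and 1.04 ± 0.18. Ldhd, which acts on the other form of lactate, rose in WT at very low levels, from a mean of 0.125 ± 0.00904 to 0.557 ± 0.0477 CPM (SD, n = 2 each). Of 14 genes of pyruvate entry into mitochondria, 3 rose and 3 fell in WT and 2 rose and 2 fell in KO. There Pdk2, a kinase of pyruvate dehydrogenase, rose by 1.60 ± 0.22 in WT, Pcx, pyruvate carboxylase, rose by 1.16 ± 0.12 and 1.24 ± 0.13, and Dlat, a pyruvate dehydrogenase subunit, fell by 0.69 ± 0.10 and by 0.63 ± 0.10.

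Of 8 pentose phosphate genes, 0 rose and 3 fell in WT and 1 rose and 3 fell in KO, with Rpia, ribose phosphate isomerase, at -0.75 ± 0.18 and -1.08 ± 0.18. Of 11 genes of glycogen and gluconeogenesis, 1 rose and 4 fell in WT and 2 rose and 6 fell in KO. Pck2, the mitochondrial PEP carboxykinase, had -1.29 ± 0.07 and -0.97 ± 0.07. Fbp1, fructose bisphosphatase, rose in both lines at very low levels, from a mean of 0.0625 ± 0.00452 to 0.615 ± 0.0345 CPM in WT and from 0.167 ± 0.0222 to 1.17 ± 0.147 CPM in KO (SD, n = 2 each). Of 9 regulators of glycolytic genes, 3 rose and 2 fell in WT and 5 rose and 2 fell in KO. Txnip, which restrains glucose uptake, rose by 5.33 ± 0.13 and 3.66 ± 0.12, and Myc fell by 0.55 ± 0.13 and by 1.27 ± 0.14.

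Of 32 further hypoxia targets tested, 6 rose and 7 fell in WT after irradiation (median log2 change 0.03) and 5 rose and 8 fell in KO (median -0.11), close to the shares over all tested genes in WT. Nos2, inducible nitric oxide synthase, had no read in unirradiated WT and a mean of 0.815 ± 0.413 CPM in irradiated WT, and 0.162 ± 0.158 against 3.64 ± 0.558 CPM in KO (SD, n = 2 each). It was called higher in both lines (edgeR adjusted p = 0.00726 and 0.00316). Hmox1, heme oxygenase, rose by 1.19 ± 0.11 in WT, and in KO its means were 27.7 ± 2.63 CPM without and 71.4 ± 4.03 CPM with irradiation (SD, n = 2 each). Loxl2, a lysyl oxidase, rose by 1.42 ± 0.20 and 1.60 ± 0.38. Loxl4, a related oxidase, fell from a mean of 160.0 ± 5.88 to 62.2 ± 3.81 CPM in WT and from 297 ± 11.1 to 106 ± 2.86 CPM in KO (SD, n = 2 each), with log2 changes of -1.42 ± 0.08 and -1.52 ± 0.08 (SE). Of 10 other HIF pathway regulators, 2 rose and 2 fell with irradiation in each line, also near the shares over all genes. Among them Arnt2, a partner subunit of HIF alpha in the nervous system, rose by 1.36 ± 0.10 in WT and 2.06 ± 0.11 in KO.

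Between the lines, 6 of the 32 further targets were higher and 8 lower in KO without irradiation, where 10.4% and 9.49% of all tested genes were, and 6 were higher and 10 lower after it, where 13.3% and 11.4% were. Loxl2 had 11.3 ± 1.26 CPM in unirradiated WT and 0.292 ± 0.156 in unirradiated KO (SD, n = 2 each), with log2 differences of -5.12 ± 0.30 without and -4.93 ± 0.25 after irradiation (SE). Plod1, a collagen lysyl hydroxylase, was higher in KO without irradiation by 1.53 ± 0.10. After irradiation its means were 176 ± 17.7 CPM in WT and 521 ± 36.8 CPM in KO (SD, n = 2 each). Flt1, a VEGF receptor, was lower in KO, with log2 differences of -1.90 ± 0.25 without and -1.94 ± 0.24 after irradiation. Arnt2 was lower in KO, with -2.05 ± 0.11 without and -1.35 ± 0.10 after irradiation.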

How the data were processed

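The libraries are mRNA sequencing of total RNA, and no source used here names the library kit. The deposited values are raw counts per Ensembl gene, whole numbers as the authors made them, with no normalization. The submitters' processing notes name HISAT2, HISAT, HTSeq, DESeq2 and the build mm10, without versions. No source used here gives the annotation release, the strand setting or the treatment of reads that map to several places. The 34 members, the other gene lists and the comparisons were chosen with earlier results of these data known.

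The tests used edgeR 4.0.16 under R 4.3.3. filterByExpr (minimum count 10, minimum total 15) kept 14923 of 29079 genes, and TMM factors ran from 0.975 to 1.023. The model held all 8 libraries and a mean for each of the 4 groups, which left 4 degrees of freedom, and the common dispersion was 0.0199. Genes were tested two-sided with the quasi-likelihood F test and adjusted over all tested genes by Benjamini-Hochberg, with a threshold of 0.05. Standard errors were derived from the F statistic. A difference is irradiated minus unirradiated or KO minus WT. An exact permutation test of 2 libraries against 2 cannot go below p = 0.33 and was not used.

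Replicate numbers 1 and 2 in the labels were checked for pairing. The differences between replicates 1 and 2 correlated across genes at 0.565 to 0.61 in all 6 pairs of groups. The main fit, which gave the main counts, standard errors and figures, did not use this pairing. A fit with the replicate number as a block was run as an alternative, and calls that changed with it are given with the results. The other alternatives were DESeq2 1.42.0, RLE or upper-quartile factors, no filter on low counts, only the 4 libraries compared, and leaving out each library. The edgeR code was tested on simulated counts.

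CPM are counts per M of total counts. TPM used the union of exons in GENCODE M21 (GRCm38), which placed 28915 genes and left 164, with the longest transcript as the alternative. A count of 0 allows up to 3 counts, which is 0.151 to 0.273 CPM, and intervals on low counts are Clopper-Pearson intervals that cover counting error only. Members are named in pathway order, with values in every library for those called between the lines, or called with a log2 change of at least 1 in size with irradiation. Genes outside the list are examples from the 4 largest changes among those called in each list, chosen after their values were known.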

Additional observations from a re-analysis of the deposited data

Results flagged for a closer look

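Txnip, a thioredoxin-binding protein that restrains glucose uptake, is among the 9 tested regulators of glycolytic genes. On the log2 scale it changed less with irradiation in KO than in WT, by a test of the difference itself. Txnip had a mean of 5.76 ± 0.906 CPM in unirradiated WT and 243 ± 22.5 in irradiated WT, and 19.9 ± 0.101 and 259 ± 16.2 CPM in KO (SD, n = 2 each). The log2 change with irradiation was 5.33 ± 0.13 in WT and 3.66 ± 0.12 in KO (SE), and the interaction was -1.67 ± 0.17 (edgeR adjusted p = 0.00336), with -1.85 to -1.51 when each library was left out. Without irradiation Txnip was higher in KO by 1.77 ± 0.14. The irradiated libraries of the lines overlapped, at 227 and 258 CPM in WT and 247 and 270.3 CPM in KO. The smaller log2 change in KO thus went with a higher unirradiated level, not with a lower irradiated level.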

How the results depend on the processing

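Of 55 calls among the members over the 5 comparisons, 54 remained with RLE factors, 53 without the low-count filter, 52 with upper-quartile factors, 51 with DESeq2, 49 with only the 4 libraries compared and 55 with the replicate block. Of the 40 irradiation calls 29, and of the 15 KO calls 8, passed under every alternative run, and no called member changed sign in any of them. Gapdh, not called without the block except without the low-count filter (irradiation in KO, KO after irradiation), changed sign without some libraries, over -0.58 to 0.26 (irradiation in WT), -0.52 to 0.33 (KO without irradiation), -0.70 to 0.05 (KO after it) and -0.69 to 0.16 (interaction). Pgam1 (KO after irradiation, -0.33 to 0.10) and Bnip3 (interaction, -0.59 to 0.05) did so as well.

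The replicate block on paired numbers raised the counts of all genes. Irradiation in WT gave 4465 lower against 2751, and in KO 4417 against 2771. KO without irradiation gave 3197 higher and 3504 lower against 1555 and 1416, and after it 3761 and 3755 against 1980 and 1698. The interaction gave 1216 and 1276 against 205 and 85. Members higher went to 5 (irradiation in WT), 2 (in KO), 11 (KO without irradiation), 14 (KO after it) and 1 (interaction), and members lower to 5 (KO without irradiation), 9 (KO after it) and 11 (interaction). With only the 4 libraries compared, members higher were 0 for irradiation in KO and 3 for KO without irradiation, where 831 genes in all were lower. Upper-quartile factors gave 2 members higher for irradiation in KO. Without the low-count filter 6 members were higher in KO after irradiation, and the interaction gave 359 and 219 genes.

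A group left with 1 library was assumed to vary like the others. Leaving out each library gave, for irradiation in WT, 2034 to 3014 genes higher and 1812 to 2754 lower, with 1 to 3 and 13 to 18 members. In KO it gave 2072 to 3104 and 1832 to 2883 genes, with 0 to 1 and 15 to 19 members. KO without irradiation gave 788 to 1409 and 676 to 1139 genes, with 3 to 5 and 2 to 3 members. KO after it gave 1100 to 1887 and 792 to 1592 genes, with 1 to 3 and 3 to 4 members. The interaction gave 99 to 124 and 18 to 31 genes, with 0 members in every fit. The cause of these shifts was not tested beyond the fewer samples in the fit. With 2 libraries per group, small changes of noisy genes were not detectable, and genes near the floor of 3 counts (Ldhb, Slc2a3) entered only the fit without the filter.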
